A study of Mus musculus with 24 samples.

Results

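The M2 macrophages of epididymal fat from obese mice given the antibody bFKB1 were compared with those from obese mice exposed to cold. The comparison held 3 bFKB1 M2 and 3 Cold M2 libraries of a series of 24 RNA sequencing libraries. Its members were set by treatment and cell population, a rule that uses no measured value, but earlier results of these data were known at the choice. The 21063 genes present in the count tables of both treatments entered the comparison. The 3 Warm M2 libraries are given beside it, since thermoneutral mice are the untreated animals of the study, and the bFKB1 and Cold M1 libraries where the same contrast was set beside that in M2. The Warm M1 libraries entered the fit of all macrophage libraries but no comparison, and the progenitor libraries were not used.

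All groups were male C57BL/6J mice on a high-fat diet, with no transgene or deletion named in the labels. The bFKB1 mice were fed until they weighed 38-42 g at 18-20 weeks of age, stayed at thermoneutral temperature, were given 10 mg/kg bFKB1 into the peritoneum, and gave tissue after 8 days. The Cold mice started the diet at 6 weeks, reached the same weight and age range, moved from thermoneutrality to 18 °C for 7 days and then to 4 °C for 7 days, and were killed on day 14. The Warm mice had the same diet and stayed at 29-30 °C. The bFKB1 and Cold groups therefore differed in antibody, in housing temperature and in time to harvest. No group given a vehicle or a control antibody is among the labels. Each Cold and each Warm library pooled sorted cells of 5 mice, and pooling is not stated for bFKB1. The bFKB1 libraries stand in a count table of their own and their library kit is not stated, so a difference between tables and a difference between treatments cannot be told apart in any value below that sets bFKB1 against Cold or Warm; the Cold and Warm libraries share a table. The labels do not say whether the samples of the bFKB1 group came from separate animals, and a p-value measures the spread between these libraries only.

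FGF21 is a hormone made mainly by the liver that acts through FGF receptor 1 together with its co-receptor β-Klotho (Klb). bFKB1 is a bispecific antibody that binds and activates this receptor pair. Cold and FGF21 receptor agonists both act on thermogenesis and on fat tissue. Macrophages called M2 in fat are largely tissue-resident cells that clear debris, store and release iron and carry scavenger receptors such as Mrc1 (CD206), while lipid-associated macrophages gather around dying adipocytes in obesity and take up their lipid.

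The libraries carried the transcripts of macrophages in both groups. The summed level of 17 core macrophage genes was 32253 to 32991 CPM in bFKB1 M2 and 30896 to 31907 CPM in Cold M2 libraries, where CPM is the level of a gene as its counts per M counts of its library. Mrc1, the mannose receptor that marks M2 cells, had 5549, 4814 and 4996 CPM in bFKB1 M2 and 5750.1, 6676 and 6454 CPM in Cold M2 libraries, a log2 difference of -0.24 ± 0.10 (SE, adjusted p = 0.217). Cd68, a lysosomal marker of macrophages, averaged 2058 ± 111 CPM in bFKB1 M2 and 2092 ± 56.1 CPM in Cold M2 libraries (SD, n = 3 each). Progenitor markers summed to 1953 to 2598 CPM in bFKB1 M2 and 2418 to 3413 CPM in Cold M2 libraries, ranges that overlapped, with none of the 15 listed genes at 0 throughout a group. The libraries held 21.3 to 23.4 M counts in bFKB1 M2 and 14.4 to 23.4 M counts in Cold M2, where libraries 2 and 3 were the shallow ones, with 14.4 and 15.1 M counts. In a principal component analysis of the 9 M2 libraries, the first component (36.59% of the variance) did not separate the treatments fully, with bFKB1 library 1 at 19.49, inside the Cold range of 18.34 to 21.58, and bFKB1 libraries 2 and 3 at 5.20 and 0.60. The second component (22.48%) held the bFKB1 libraries at -26.08 to -16.11 and the Cold libraries at 0.27, 20.55 and 23.92, and Cold M2 library 1 lay nearest to bFKB1.

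Against Cold, 576 genes differed in bFKB1 M2 macrophages at an adjusted p under 0.05, which is 4.4% of the 13086 genes tested. Here and below the test is edgeR's quasi-likelihood F-test with Benjamini-Hochberg adjustment over all genes tested, and genes past the threshold are said to be called. Of the 576, 436 were higher in bFKB1 (3.33% of the genes tested) and 140 were lower (1.07%). The share of higher genes depended on the scaling and on the libraries fitted: with library totals in place of TMM scaling, 153 genes were higher and 205 lower, while the median log2 difference of all genes moved from 0.00 to -0.06. With TMM kept, a fit of the 6 libraries compared called 246 higher and 233 lower, 294 of them among the 576, and a fit of the 9 M2 libraries called 523 higher and 383 lower. An absolute log2 difference of at least 1 was reached by 91 called genes (0.695%), 66 of them higher and 25 lower in bFKB1. The 3 bFKB1 and the 3 Cold libraries did not overlap in CPM for 28.8% of all genes tested and for 540 of the 576 called genes.

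**Figure D1:**
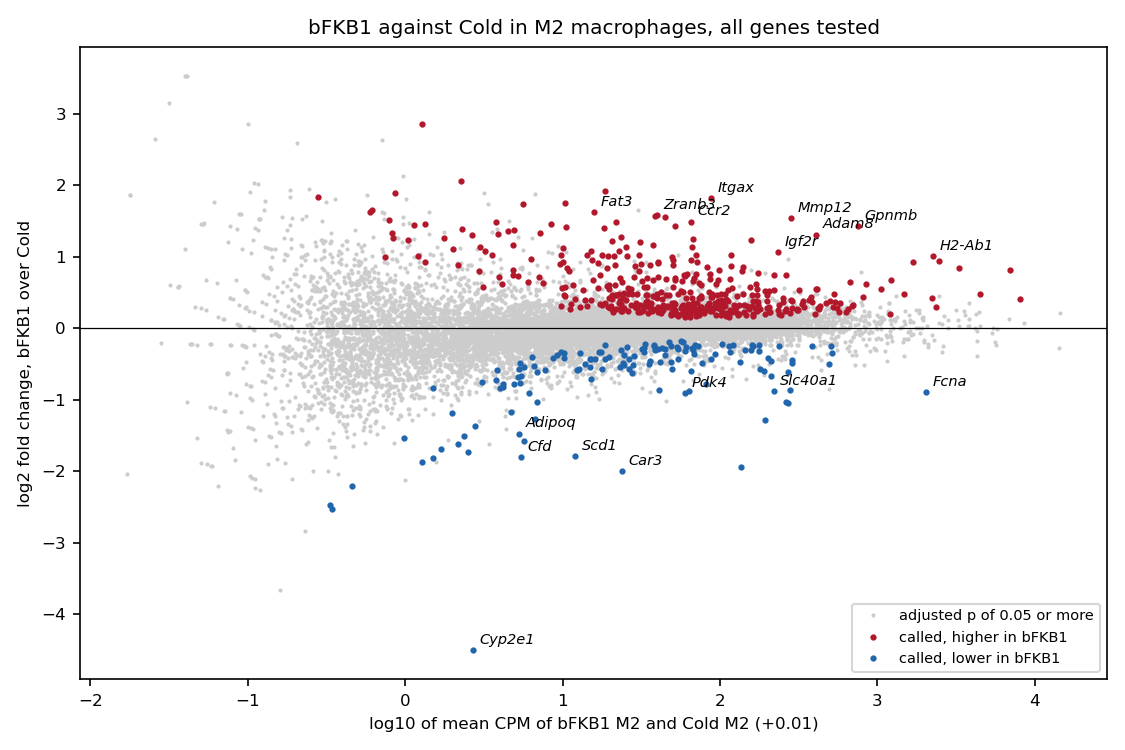
Each point is a gene tested, placed by the log10 of its mean CPM over bFKB1 M2 and Cold M2 (horizontal axis) and its log2 fold change, bFKB1 over Cold (vertical axis). Red points are the 436 genes called higher in bFKB1 and blue points the 140 called lower, grey points are genes that were not called, and Cyp2e1 lies lowest among the called genes at -4.51.

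The number of called genes rested on single libraries. It was 373, 141 and 27 without bFKB1 M2 library 1, 2 and 3, and 787, 29 and 31 without Cold M2 library 1, 2 and 3. All 576 genes kept their direction in each of these 6 fits, and 22 of them, 18 higher and 4 lower, were called in every one. Among the genes selected by rule, 13 of the 72 called belong to these 22, among them Itgax, Gpnmb, Fat3, Zranb3, Igf2r, Adam8, Il7r and Anxa1, which were higher, and Cyp2e1, Car3 and Ddit3, which were lower in bFKB1. Called genes outside these 22 were each lost in at least 1 of the 6 fits. Of the 72 selected genes that were called, 15, 37 and 55 lost the call without bFKB1 M2 library 1, 2 and 3, and 6, 56 and 56 lost it without Cold M2 library 1, 2 and 3.

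**Figure D2:**
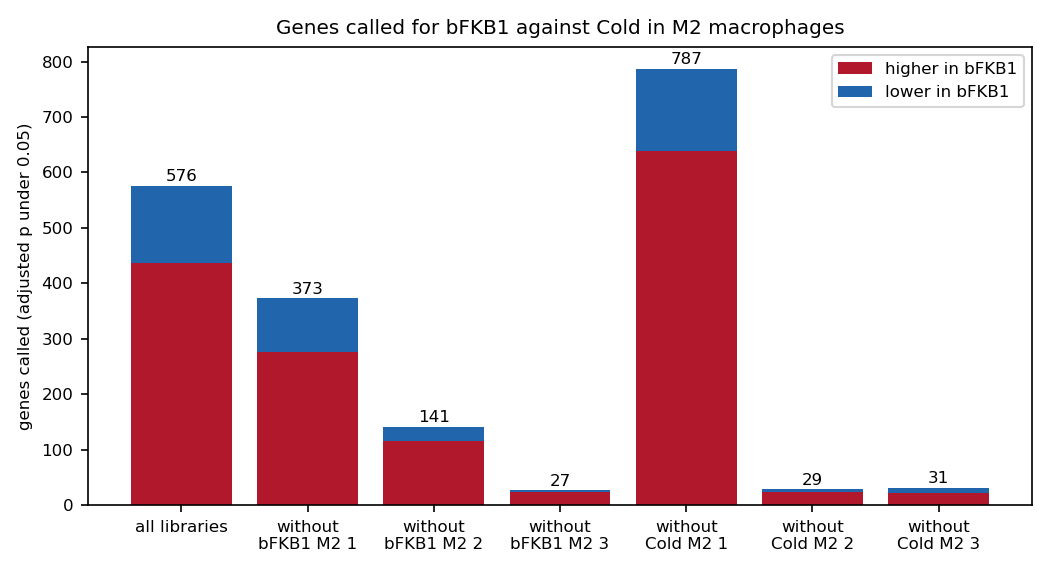
Stacked bars give the number of genes called for bFKB1 against Cold in M2 macrophages (vertical axis) with all libraries and with each of the 6 libraries left out in turn (horizontal axis), red for genes higher and blue for genes lower in bFKB1. The count is 576 with all libraries and between 27 and 787 with 1 left out.

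Genes of lipid-associated macrophages had the most called members of the 46 lists. Of 18 listed genes, all tested, 10 were called higher in bFKB1 and 0 lower, with a median log2 difference of 0.65 against 0.00 for all genes tested. Itgax, the integrin CD11c found on macrophages around dying adipocytes (chr7:128129547-128150657, plus strand, GENCODE M21 on GRCm38), had 88.7, 131 and 187 CPM in the bFKB1 M2 libraries and 49.8, 34 and 36.3 CPM in the Cold M2 libraries. Every bFKB1 library lay above every Cold library, and the log2 difference was 1.82 ± 0.24 (SE, adjusted p = 0.00322). Gpnmb, a transmembrane glycoprotein of lipid-laden macrophages (chr6:49036546-49070929, plus strand), had 956, 975 and 1343 CPM in bFKB1 M2 and 565, 369 and 332 CPM in Cold M2 libraries, again without overlap and with a log2 difference of 1.43 ± 0.21 (SE, adjusted p = 0.00344). Mmp12, the macrophage elastase, had 309.9, 303 and 635 CPM in bFKB1 M2 and 189.6, 142 and 117 CPM in Cold M2 libraries. bFKB1 library 3 was far above the other 2, the log2 difference was 1.54 ± 0.27 (SE, adjusted p = 0.00904), and the call was lost without Cold M2 library 2 or 3. An exon of Mmp12 overlaps Mmp1b in the annotation, and the counting rule for shared bases is not stated.

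The tetraspanin Cd9, which marks these cells together with Trem2, had 185, 170.1 and 176 CPM in bFKB1 M2 and 143, 81.6 and 81.1 CPM in Cold M2 libraries, with a log2 difference of 0.85 ± 0.18 (SE, adjusted p = 0.0202). Cold M2 library 1 stood between the other 2 Cold libraries and bFKB1. The other called members, chosen for mention after their values were seen, were Spp1 (osteopontin, 1.02), Lpl (lipoprotein lipase, 0.93), Fabp5 (a fatty acid carrier, 0.87), Ctsk (cathepsin K, 0.82), Atp6v0d2 (a subunit of the proton pump, 0.81) and Lgals3 (galectin-3, 0.48), each as a log2 difference. Lpl had 2294, 2108 and 2091 CPM in bFKB1 M2 and 1783, 902 and 872 CPM in Cold M2 libraries, so that Cold M2 library 1 again lay close to bFKB1. The 8 members that were not called included Trem2, the lipid receptor of these cells, at 0.49 (adjusted p = 0.108), Cd36 at -0.07 (adjusted p = 0.772) and Fabp4 at 0.05 (adjusted p = 0.928). Without Cold M2 library 2 or 3 the list had 2 called members, without bFKB1 M2 library 3 it had 3, without bFKB1 M2 library 1 or 2 it had 5, and without Cold M2 library 1 it had 11. The median of its members stayed between 0.53 and 0.86 in these 6 fits. A fit of the 6 libraries compared, without the Warm and M1 libraries, called 4 members. Itgax and Cd9 were also taken as markers of M1 cells, and the part of such cells in these levels was not tested.

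**Figure D3:**
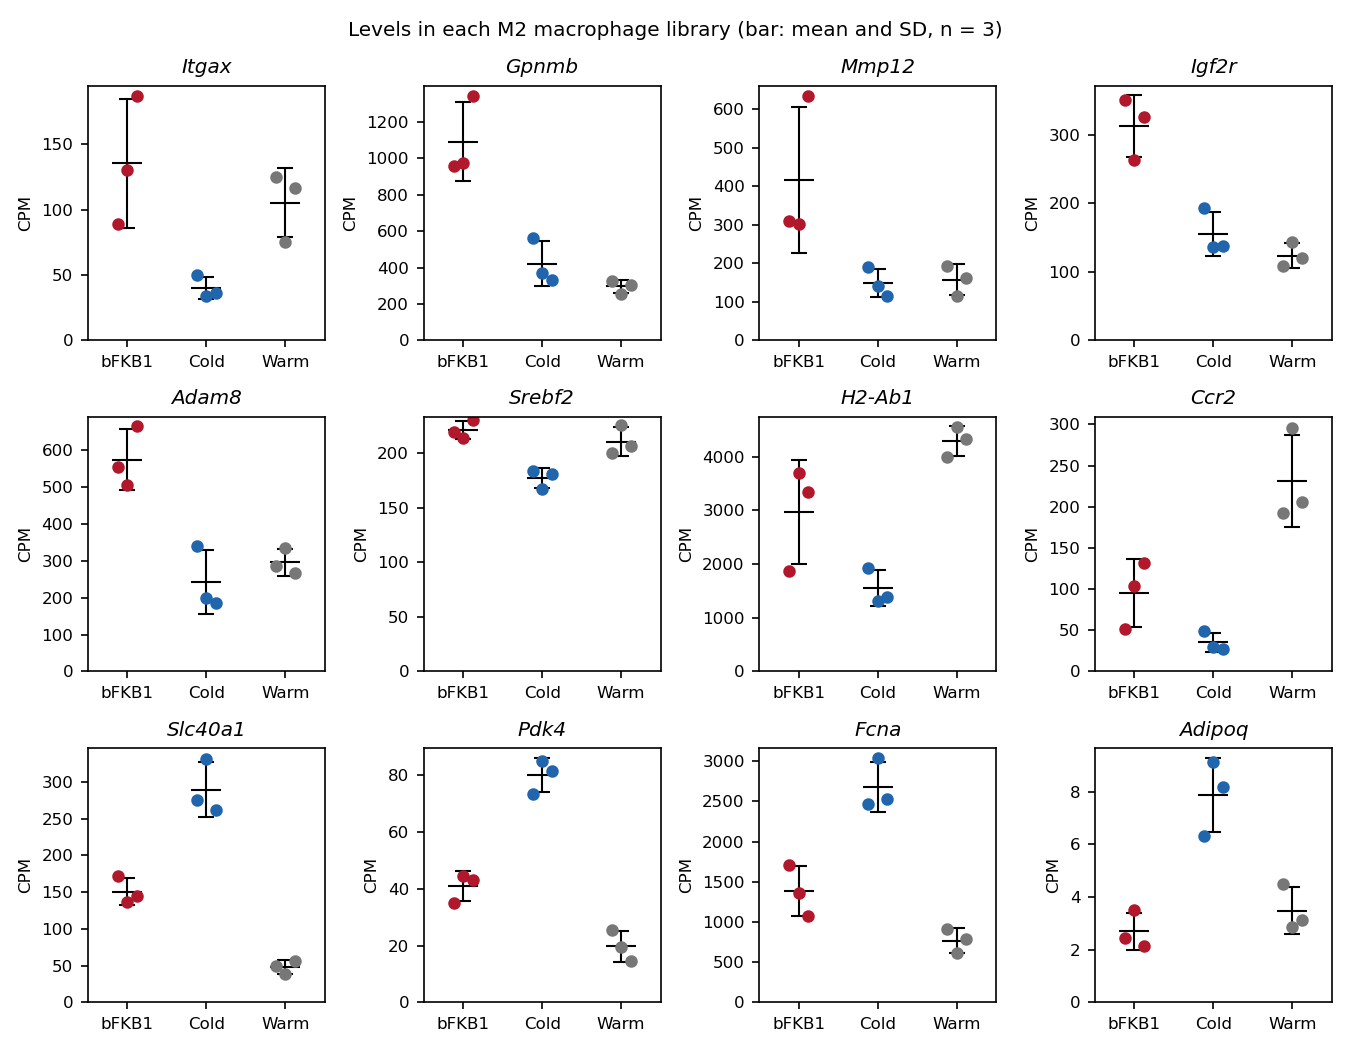
Each panel gives the CPM (vertical axis, from 0) of a gene in the bFKB1 M2, Cold M2 and Warm M2 libraries, with points for libraries, horizontal lines for the mean and whiskers for the SD (n = 3). Itgax, Gpnmb, Mmp12, Igf2r, Adam8 and Srebf2 lie higher in every bFKB1 than in every Cold library, H2-Ab1 overlaps, and Slc40a1, Pdk4, Fcna and Adipoq lie lower in every bFKB1 library.

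Of the 12 genes of matrix proteases, 2 were called higher and 1 lower in bFKB1, with a median of -0.05. Adam8, a membrane metalloprotease of macrophages (chr7:139978932-139992562, minus strand), had 555, 505 and 665 CPM in bFKB1 M2 and 342, 199 and 184 CPM in Cold M2 libraries, with a log2 difference of 1.31 ± 0.18 (SE, adjusted p = 0.00322). Mmp19 had 168, 179.9 and 307 CPM in bFKB1 M2 and 113, 90.9 and 87.3 CPM in Cold M2 libraries and a log2 difference of 1.23 ± 0.20 (SE, adjusted p = 0.00712), lost without Cold M2 library 2 or 3; it shares exon sequence with Tmem198b. The lower one was Mmp9, gelatinase B, with 152, 188 and 159 CPM in bFKB1 M2 and 352, 336 and 378 CPM in Cold M2 libraries, a log2 difference of -1.04 ± 0.23 (SE, adjusted p = 0.023) that kept its call without Cold M2 library 1 and lost it without any other library. Il7r, the receptor of interleukin 7 and a member of the list of T cell markers, had 32.1, 33.6 and 37.1 CPM in bFKB1 M2 and 22.7, 12.1 and 13.3 CPM in Cold M2 libraries and a log2 difference of 1.13 ± 0.17 (SE, adjusted p = 0.00344). It was the 1 called gene among 9 tested T and NK cell markers, of which 5 had a positive and 4 a negative log2 difference (median 0.02). The 15 listed markers summed to 53.6 to 61.4 CPM in bFKB1 M2 and 44.7 to 51.0 CPM in Cold M2 libraries. Il7r itself is part of this sum and a large share of it, so the sum is no separate measure of T cells. The part of T cells in the level of Il7r was not tested. In bulk libraries fewer cells of a type and less RNA per cell cannot be told apart.

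Igf2r, the receptor that carries mannose 6-phosphate enzymes to lysosomes and clears IGF2 (chr17:12682406-12769664, minus strand), had 351, 263 and 325 CPM in bFKB1 M2 and 193, 136 and 138 CPM in Cold M2 libraries. The groups were apart by more than their spread, with a log2 difference of 1.07 ± 0.15 (SE, adjusted p = 0.00344), and the call held in all 6 fits. Of 31 lysosomal genes, 2 were called higher in bFKB1, Psap at 0.41 and Gusb at 0.37, and 0 lower, with a median of 0.10; with library totals as the scaling neither was called. The promoter of Igf2r is shown because the palindrome TCACGTGA, an E-box of the kind bound by the TFE family that controls lysosomal genes, occurs 2 times in the 100 bases before its start, and in 0.524% of the 32851 promoters of the same length. The sequence is that of RefSeq on GRCm38.p6, minus strand, chr17:12769707-12769806, with the palindrome in capitals; such a match describes letters and not binding.
Igf2r: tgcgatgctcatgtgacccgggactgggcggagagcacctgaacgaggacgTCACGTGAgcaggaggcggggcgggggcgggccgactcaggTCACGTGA

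Sterol synthesis and uptake genes formed the next group. Of 24 tested genes, 7 were called higher in bFKB1 and 0 lower, with a median log2 difference of 0.22. Srebf2, the transcription factor of the pathway, had 219, 213 and 229.7 CPM in bFKB1 M2 and 183, 167 and 181 CPM in Cold M2 libraries (log2 difference 0.38 ± 0.06 SE, adjusted p = 0.00712). Sqle at 0.88, Cyp51 at 0.72 and Sc4mol at 0.48, enzymes of squalene and sterol oxidation, were also called and are named after their values were seen. Insig1, which holds SREBP proteins back, was at -0.27 (adjusted p = 0.0571), the lowest value of the list. Mylip, a ubiquitin ligase and a target of the LXR receptors, was the 1 called gene of 11 in the list of LXR and efflux and was lower in bFKB1, with 52.1, 53 and 48 CPM against 77.2, 76 and 89.2 CPM in Cold M2 libraries and a log2 difference of -0.60 ± 0.14 (SE, adjusted p = 0.0254). The sterol list had 2 called members without bFKB1 M2 library 3 or Cold M2 library 2 or 3, and 9 without Cold M2 library 1. With library totals as the scaling 6 were called higher and 1 lower.

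Genes of MHC class II antigen presentation were higher in bFKB1 where called, with wide spread between libraries. Of 14 tested genes, 5 were called higher and 0 lower, with a median log2 difference of 0.68, where 3.33% of all genes tested were called higher. The list was mixed, with 10 positive and 4 negative log2 differences, from -1.25 to 1.01. H2-Ab1, the β chain of I-A, had 1866, 3704 and 3339.7 CPM in bFKB1 M2 and 1934, 1318 and 1388 CPM in Cold M2 libraries, so the lowest bFKB1 library lay under the highest Cold library, and the log2 difference was 1.01 ± 0.23 (SE, adjusted p = 0.0256). H2-Aa, the α chain, had 2699, 5047 and 4672 CPM in bFKB1 M2 and 2935, 2107 and 2202 CPM in Cold M2 libraries with the same overlap, and a log2 difference of 0.84 ± 0.21 (SE, adjusted p = 0.0401). H2-Eb1 followed with 0.94 ± 0.22 (SE, adjusted p = 0.0298). H2-DMb1, a subunit of the peptide-loading DM complex, did not overlap, with 106, 171 and 171 CPM in bFKB1 M2 and 101, 76.7 and 77.4 CPM in Cold M2 libraries and a log2 difference of 0.88 ± 0.18 (SE, adjusted p = 0.0202). Cd74, the invariant chain, was at 0.82 (adjusted p = 0.0482), and Ciita, the coactivator of the class II genes, at 0.58 (adjusted p = 0.171). No member was called without Cold M2 library 2 or 3 or without bFKB1 M2 library 2 or 3, while 7 were called without bFKB1 M2 library 1 and 6 without Cold M2 library 1. With library totals as the scaling 3 were called, and in a fit of the 6 libraries compared 1 was. Dendritic cell markers summed to 378 to 401 CPM in bFKB1 M2 and 394 to 476 CPM in Cold M2 libraries, with log2 differences of single markers from -0.80 to 1.77, and their part in the class II levels was not tested.

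The promoters of 3 of these genes are given because the genes stand together in the result and share a landmark of class II promoters, the Y box, whose core ATTGG was found in the last 100 bases before the start in 9 of the 10 class II genes that have an entry. In all 32851 promoters of the same length it was found in 18.9%. The core, searched on both strands, is in capitals (CCAAT where it lies on the other strand). The sequences are those of RefSeq on GRCm38.p6, for H2-Eb1 chr17:34305767-34305866 (plus strand), for H2-Aa chr17:34287824-34287923 (minus strand) and for H2-DMb1 chr17:34153091-34153190 (plus strand). The core lies 59 bases before the start in H2-Eb1, 48 bases in H2-Aa and 61 bases in H2-DMb1, and H2-Eb1 holds another at 35 bases.
H2-Eb1: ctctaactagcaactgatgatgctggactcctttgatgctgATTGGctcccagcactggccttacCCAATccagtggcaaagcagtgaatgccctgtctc
H2-Aa: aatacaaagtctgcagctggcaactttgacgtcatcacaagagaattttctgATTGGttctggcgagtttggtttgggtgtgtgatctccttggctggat
H2-DMb1: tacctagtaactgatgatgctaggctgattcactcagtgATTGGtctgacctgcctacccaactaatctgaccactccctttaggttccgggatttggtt

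Monocyte genes showed a call for Ccr2, the receptor that brings monocytes into fat, and for F10, coagulation factor X, 2 of 15 tested, with a list median of -0.06. A fit of the 6 libraries compared called 0 of the list higher and 2 lower. Ccr2 had 51, 103 and 131 CPM in bFKB1 M2 and 48.7, 29.6 and 27.3 CPM in Cold M2 libraries. The bFKB1 libraries differed among themselves by more than the lowest of them differed from the Cold libraries, and the log2 difference was 1.49 ± 0.34 (SE, adjusted p = 0.0262). F7, coagulation factor VII, had 11.8, 12.2 and 23.8 CPM in bFKB1 M2 and 7.48, 3.41 and 3.24 CPM in Cold M2 libraries, with a log2 difference of 1.75 ± 0.30 (SE, adjusted p = 0.00856). Cd14, the co-receptor for lipopolysaccharide, had 1261, 1509 and 1671 CPM in bFKB1 M2 and 1061, 916 and 921 CPM in Cold M2 libraries (log2 difference 0.68 ± 0.16 SE, adjusted p = 0.0277). Emr1, the F4/80 antigen, was at 0.29 (adjusted p = 0.0449); with Cd14 it made the 2 called of 17 core macrophage genes, both higher. Neither was called with library totals as the scaling, and Emr1 kept its call in 1 of the 6 fits that left out a library and Cd14 in 2. Cd44, the hyaluronan receptor, averaged 324 ± 62.5 CPM in bFKB1 M2 and 203 ± 35.8 CPM in Cold M2 libraries (SD, n = 3 each), and its log2 difference was 0.74 ± 0.16 (SE, adjusted p = 0.0222).

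Resident macrophage genes were on the lower side. Of 23 tested genes, 19 had a negative and 4 a positive log2 difference, from -0.90 to 0.79, with a median of -0.21. In bFKB1 2 were called lower and 0 higher, where 1.07% of all genes tested were called lower. Fcna, the lectin ficolin-A, had 1707, 1364 and 1079 CPM in bFKB1 M2 and 2473, 3043 and 2536 CPM in Cold M2 libraries, with a log2 difference of -0.90 ± 0.19 (SE, adjusted p = 0.0224). Vsig4, the complement receptor of resident macrophages, had 58.7, 39.8 and 31.4 CPM in bFKB1 M2 and 77.6, 89 and 82.2 CPM in Cold M2 libraries, with a log2 difference of -0.88 ± 0.17 (SE, adjusted p = 0.014). For both the groups were apart, and both calls were lost without bFKB1 M2 library 2 or 3 or Cold M2 library 2 or 3. Lyve1 was at -0.51 (adjusted p = 0.238), Timd4 at -0.45 (adjusted p = 0.213) and Cd163 at -0.23 (adjusted p = 0.57). In the list of alternative activation, 0 of 17 genes were called in either direction, while 4 had an unadjusted p under 0.05 and DESeq2, as an alternative, called 4 higher; Retnla averaged 3790.5 CPM in bFKB1 M2 and 3356 CPM in Cold M2 libraries, and Ear2 was at 1.88 (adjusted p = 0.0804).

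Of 17 tested genes of iron and heme handling, 2 were called higher in bFKB1 and 1 lower, and with library totals as the scaling 0 higher and 1 lower. Slc40a1, ferroportin, the exporter of iron, had 172, 136 and 144 CPM in bFKB1 M2 and 275, 331 and 261 CPM in Cold M2 libraries, with no overlap and a log2 difference of -0.88 ± 0.21 (SE, adjusted p = 0.0301). Slc11a1, the metal transporter of the phagosome, had 533, 530.0 and 599 CPM in bFKB1 M2 and 490.2, 454 and 392 CPM in Cold M2 libraries (log2 difference 0.38 ± 0.08 SE, adjusted p = 0.0253), and the heme transporter Slc48a1, which shares exon sequence with Hdac7, was at 0.42 (adjusted p = 0.022). Slc11a1 and Slc48a1 are the calls lost with library totals. Hmox1, which degrades heme, was at -0.19 (adjusted p = 0.439), and the ferritin gene Fth1 at 0.12 (adjusted p = 0.418). Among 15 genes of efferocytosis and scavenging, 2 were called higher and 0 lower, the lipoprotein receptor Scarb1 at 0.51 (adjusted p = 0.0309) and the integrin Itgav at 0.60 (adjusted p = 0.0381). With library totals as the scaling neither was called, and each kept its call in 1 of the 6 fits that left out a library. Txnrd1, thioredoxin reductase, was the 1 called of 17 antioxidant genes, higher at 0.53 (adjusted p = 0.018).

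Few genes of fuel use were called. Pdk4, the kinase that shuts off pyruvate oxidation, had 34.9, 44.6 and 43 CPM in bFKB1 M2 and 73.3, 84.9 and 81.5 CPM in Cold M2 libraries, with a log2 difference of -0.90 ± 0.17 (SE, adjusted p = 0.0126), and was the 1 called of 23 tested genes of fatty acid oxidation. Of 23 genes of glycolysis and hypoxia, 3 were called higher in bFKB1 and 0 lower, and 1 was called higher with library totals as the scaling. Slc2a1, the glucose transporter GLUT1, had 24.2, 19.6 and 27.7 CPM in bFKB1 M2 and 16.6, 8.9 and 10.5 CPM in Cold M2 libraries (log2 difference 1.02 ± 0.17 SE, adjusted p = 0.00712). Vegfa had 18.3, 17.5 and 25.8 CPM in bFKB1 M2 and 16.4, 6.12 and 6.81 CPM in Cold M2 libraries (log2 difference 1.08 ± 0.27 SE, adjusted p = 0.0356), with Cold M2 library 1 near the lower bFKB1 libraries. Aldoa, an enzyme of glycolysis that shares exon sequence with Fam57b, was at 0.31 (adjusted p = 0.0364). Of 27 genes of the respiratory chain 0 were called, by DESeq2 likewise, and 2 had an unadjusted p under 0.05; their log2 differences ran from -0.11 to 0.18.

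Genes of adipocytes, most of them at low levels, were lower in bFKB1 where called. Of 11 tested genes of adipocytes, 7 were called lower in bFKB1 and 0 higher, with a median log2 difference of -1.36. Adipoq, the hormone adiponectin, had 2.44, 3.51 and 2.14 CPM in bFKB1 M2 and 6.33, 9.11 and 8.19 CPM in Cold M2 libraries (log2 difference -1.47 ± 0.27 SE, adjusted p = 0.0122). Car3, a carbonic anhydrase abundant in fat, had 6.81, 13 and 7.82 CPM in bFKB1 M2 and 35.3, 43.3 and 37.2 CPM in Cold M2 libraries (log2 difference -2.0 ± 0.27 SE, adjusted p = 0.00322). Cfd, adipsin, had 1.55, 3.38 and 2.1 CPM in bFKB1 M2 and 8.76, 9.67 and 7.33 CPM in Cold M2 libraries (log2 difference -1.80 ± 0.36 SE, adjusted p = 0.0178). For all of these every bFKB1 library was below every Cold library. Cidec, a lipid droplet protein, was at -1.27 (adjusted p = 0.00704), and Retn, Thrsp and Plin1, added after their values were seen, were at -1.87, -1.82 and -1.36.

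Other genes named for a large fall, or from the lipogenesis list, were lower in bFKB1 where called. Cyp2e1, a cytochrome P450 of liver and fat, had 0.0469, 0.257 and 0.326 CPM in bFKB1 M2 and 5.17, 6.47 and 3.83 CPM in Cold M2 libraries, the largest difference among the named genes at -4.51 ± 0.47 (SE, adjusted p = 0.00119). The bFKB1 M2 libraries together held 14 counts of Cyp2e1 and the Cold M2 libraries 272, so the size of this difference rests on few reads. Scd1, the stearoyl-CoA desaturase, had 4.93, 6.11 and 4.61 CPM in bFKB1 M2 and 16.8, 19.9 and 20.0 CPM in Cold M2 libraries (log2 difference -1.79 ± 0.30 SE, adjusted p = 0.00846), and Plin4, a lipid droplet coat protein, had 3.05, 3.16 and 2.00 CPM in bFKB1 M2 and 7.09, 10.1 and 8.66 CPM in Cold M2 libraries (log2 difference -1.58 ± 0.36 SE, adjusted p = 0.0257). Dgat2, which makes triglyceride, was at -0.79 (adjusted p = 0.036), and its call was lost in each of the 6 fits that left out a library. Scd1 and Dgat2 were the 2 called of 16 lipogenesis genes, of which 9 had a positive and 7 a negative log2 difference, with a median of 0.00. The whole adipocyte list summed to 178 to 217 CPM in bFKB1 M2 and 241 to 254 CPM in Cold M2 libraries, a sum that includes Pnpla2 and Lipe, lipases at 134 and 41 CPM in bFKB1 M2 and 128 and 46.2 CPM in Cold M2 libraries that were not called. Ucp1 and Cidea were under the filter on low counts. The part of RNA from adipocytes in these differences was not tested. The list had 1 called member without bFKB1 M2 library 3 or Cold M2 library 2, 2 without Cold M2 library 3, and 4, of 6 tested, with a minimum of 5 CPM.

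Of 15 genes of heat and cold shock, 3 heat shock genes were called lower in bFKB1 and 0 higher. Hspa1b, an inducible HSP70, had 28.5, 71.5 and 62.5 CPM in bFKB1 M2 and 217, 153 and 279 CPM in Cold M2 libraries (log2 difference -1.94 ± 0.44 SE, adjusted p = 0.0265). Hspa1a had 69.7, 136 and 119 CPM in bFKB1 M2 and 268, 227 and 334 CPM in Cold M2 libraries (log2 difference -1.29 ± 0.34 SE, adjusted p = 0.0441); these genes are near-identical copies and reads may be split between them. Hsp90aa1, the inducible HSP90, had 20.0, 22.2 and 21.4 CPM in bFKB1 M2 and 35.9, 32.5 and 34.2 CPM in Cold M2 libraries (log2 difference -0.63 ± 0.10 SE, adjusted p = 0.00734). Of the 6 fits that left out a library, Hspa1b kept its call in 1, that without Cold M2 library 1, and Hspa1a in 0. Ddit3 (CHOP), a factor of the stress response whose annotation overlaps Mars, had 18.6, 22.2 and 21.3 CPM in bFKB1 M2 and 33, 29.6 and 33.4 CPM in Cold M2 libraries, a log2 difference of -0.57 ± 0.08 (SE, adjusted p = 0.00322), and its call held in all 6 fits. Dnajb11, a chaperone of the endoplasmic reticulum, was higher at 0.25 (adjusted p = 0.018); these were the called genes of 20 in the unfolded protein response, and Dnajb11 was not called with library totals as the scaling.

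Chemokine and interferon genes had few calls. Ccl4 had 179, 187 and 152 CPM in bFKB1 M2 and 401, 368 and 345 CPM in Cold M2 libraries (log2 difference -1.04 ± 0.17 SE, adjusted p = 0.00712), and Ccl3 had 228, 199 and 149 CPM in bFKB1 M2 and 397, 348 and 349 CPM in Cold M2 libraries (log2 difference -0.87 ± 0.17 SE, adjusted p = 0.0162). With Cd44 these were the called genes of 25 in the pro-inflammatory list, so 1 was higher and 2 were lower. Of 33 interferon response genes 29 had a negative log2 difference, with a median of -0.13, but 2 were called, both lower: Oasl1 with 35.6, 40.9 and 41 CPM in bFKB1 M2 and 60.0, 56.6 and 65 CPM in Cold M2 libraries (log2 difference -0.57 ± 0.11 SE, adjusted p = 0.014) and Rsad2 at -0.38 (adjusted p = 0.0379). Ier3 was the 1 called of 18 immediate early genes and was lower, at -0.50 (adjusted p = 0.0174). Of 31 cell cycle genes 27 had a negative log2 difference, with a median of -0.18, and 1 was called, the mitotic kinesin Kif11 at -0.46 (adjusted p = 0.0401). The called share was 3.23% of the cell cycle list and 6.06% of the interferon list, beside 4.4% of all genes tested. The signs of list members were not tested as a set.

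Genes of the glucocorticoid response were higher where called, 3 of 11 with 0 lower and a median of 0.36. Anxa1, annexin A1, an inhibitor of inflammation (chr19:20373428-20390944), had 753, 787 and 866 CPM in bFKB1 M2 and 597, 485 and 518 CPM in Cold M2 libraries, a log2 difference of 0.65 ± 0.09 (SE, adjusted p = 0.00322). Cdkn1a, the cell cycle inhibitor p21, had 119.7, 148 and 153 CPM in bFKB1 M2 and 96, 83.1 and 93.4 CPM in Cold M2 libraries (log2 difference 0.69 ± 0.11 SE, adjusted p = 0.00771). Sgk1, a kinase, was at 0.68 (adjusted p = 0.0268). Each of these genes also answers to other signals.

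The receptor pair that bFKB1 engages gave no call in these cells. Fgfr1 had 584, 624 and 623 CPM in bFKB1 M2 and 607, 770.2 and 784 CPM in Cold M2 libraries, with a log2 difference of -0.18 ± 0.15 (SE, adjusted p = 0.578). Klb had 0.329, 0.128 and 0.419 CPM in bFKB1 M2 and 0.513, 0.557 and 0.396 CPM in Cold M2 libraries, under the filter on low counts and therefore not tested. Of 14 tested genes of FGF receptors and MAPK feedback, 1 was called: Dusp5, a nuclear phosphatase of ERK, with 77.6, 80.0 and 113 CPM in bFKB1 M2 and 62.2, 29.5 and 36.5 CPM in Cold M2 libraries (log2 difference 1.13 ± 0.23 SE, adjusted p = 0.0182). Dusp6 was at -0.20 (adjusted p = 0.508), Spry2 at -0.03 (adjusted p = 0.986) and Etv5 at -0.10 (adjusted p = 0.718). 

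Among the 10 genes named for the largest rise were several with no place in these groups. Zranb3, a DNA translocase of stalled replication forks (chr1:127954184-128103047), had 55.4, 55.2 and 65.9 CPM in bFKB1 M2 and 25.8, 18.7 and 16.4 CPM in Cold M2 libraries, a log2 difference of 1.58 ± 0.18 (SE, adjusted p = 0.0014), called in all 6 fits. Fat3, an atypical cadherin (chr9:15910189-16501285), had 27.3, 25 and 19.1 CPM in bFKB1 M2 and 8.85, 6.89 and 8.19 CPM in Cold M2 libraries (log2 difference 1.63 ± 0.23 SE, adjusted p = 0.00344), also called in all 6. Vsig8 had 19.2, 25 and 43.6 CPM in bFKB1 M2 and 12, 6.61 and 5.02 CPM in Cold M2 libraries (log2 difference 1.91 ± 0.31 SE, adjusted p = 0.00712), and Pcdh7, a protocadherin, had 76.7, 61.1 and 62.4 CPM in bFKB1 M2 and 37.4, 14.3 and 17.6 CPM in Cold M2 libraries (log2 difference 1.56 ± 0.30 SE, adjusted p = 0.0152). Htr2b, a serotonin receptor that lies over exon sequence of Psmd1, was at 1.49 (adjusted p = 0.0191). On the lower side, Prkcq, protein kinase C theta, had 2.77, 2.48 and 3.12 CPM in bFKB1 M2 and 5.6, 7.86 and 6.34 CPM in Cold M2 libraries (log2 difference -1.18 ± 0.23 SE, adjusted p = 0.0174). Among the 22 genes called in all 6 fits, picked after their values were seen, Kcnn4, a calcium-activated potassium channel, averaged 74.9 CPM in bFKB1 M2 and 28.7 CPM in Cold M2 libraries, a log2 difference of 1.43, and Wfs1, a protein of the endoplasmic reticulum, averaged 84.6 CPM in bFKB1 M2 and 45.7 CPM in Cold M2 libraries, a log2 difference of 0.95.

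**Figure D4:**
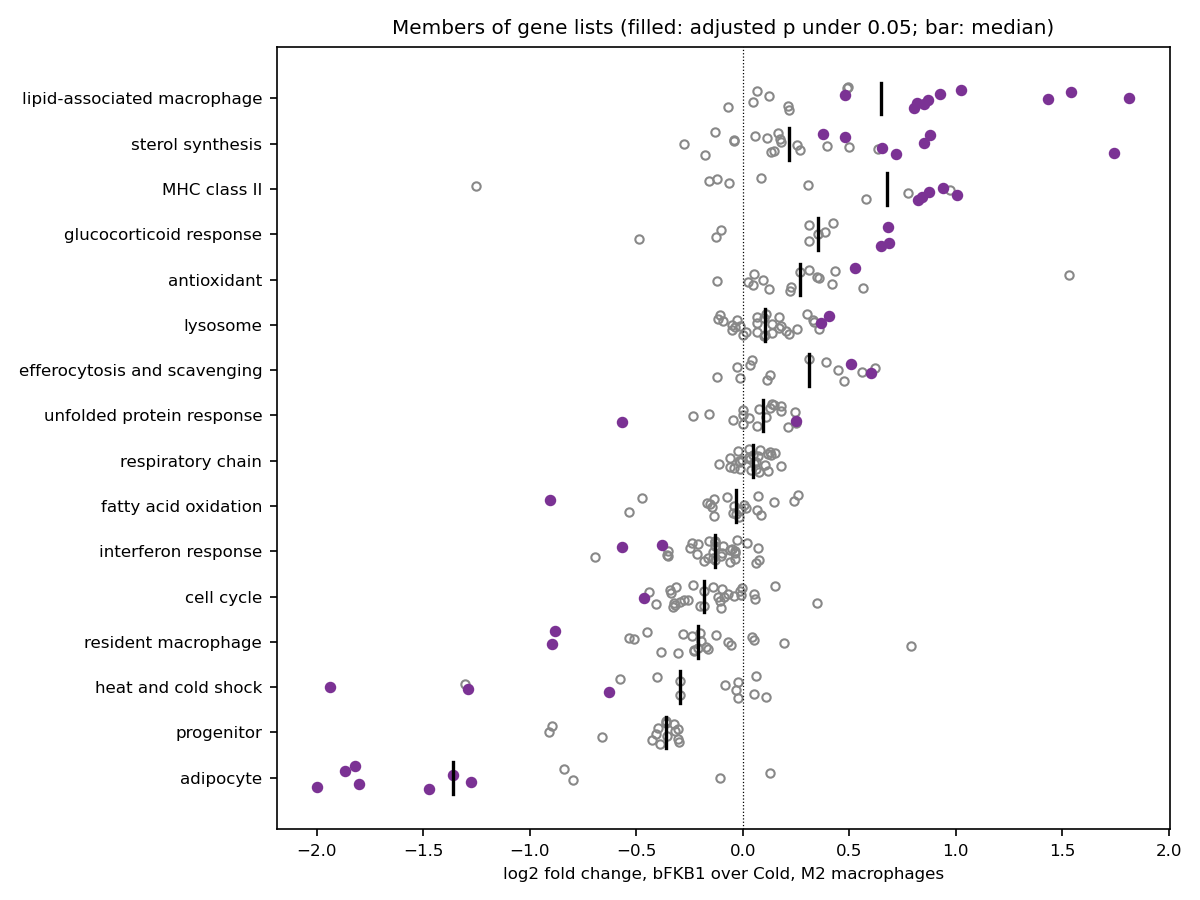
Each row is a gene list and each point a tested member, placed by its log2 fold change, bFKB1 over Cold, in M2 macrophages (horizontal axis); filled points are called, open points are not, and the vertical bar is the list's median. Lipid-associated macrophage genes lie to the right with a median of 0.65 and adipocyte genes to the left with a median of -1.36.

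The levels in thermoneutral mice place these differences. Both treatments were set against the same 3 Warm M2 libraries, so the comparisons share them and are given side by side. Against Warm, 8.15% of the genes tested were called in bFKB1 M2 (5.38% higher, 2.77% lower) and 12.8% in Cold M2 (5.61% higher, 7.15% lower). Of the 18 lipid-associated macrophage genes, 13 were called higher and 0 lower in bFKB1, and 5 higher and 1 lower in Cold. Gpnmb had 956, 975 and 1343 CPM in bFKB1 M2, 565, 369 and 332 CPM in Cold M2 and 329, 254 and 306 CPM in Warm M2 libraries, with a log2 difference from Warm of 1.87 ± 0.21 (SE, adjusted p = 2.13e-04) in bFKB1 and 0.44 ± 0.20 (SE, adjusted p = 0.17) in Cold. For Igf2r the log2 difference from Warm was 1.33 ± 0.15 (SE, adjusted p = 2.61e-04) in bFKB1 and 0.26 ± 0.15 (SE, adjusted p = 0.275) in Cold. Itgax stood otherwise: with 125, 75.2 and 116 CPM in the Warm M2 libraries its log2 difference from Warm was 0.35 ± 0.23 (SE, adjusted p = 0.384) in bFKB1 and -1.46 ± 0.24 (SE, adjusted p = 0.00176) in Cold.

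H2-Ab1, like Itgax, averaged lowest in Cold. H2-Ab1 had 3984, 4544 and 4332 CPM in Warm M2 libraries, with -0.53 ± 0.23 (SE, adjusted p = 0.164) in bFKB1 and -1.54 ± 0.23 (SE, adjusted p = 9.24e-04) in Cold. Of the 14 class II genes 1 was called lower and 0 higher against Warm in bFKB1, and 8 lower and 0 higher in Cold. Srebf2 averaged 210 CPM in Warm M2 libraries, with 0.06 ± 0.06 (SE, adjusted p = 0.58) in bFKB1 and -0.32 ± 0.06 (SE, adjusted p = 0.00478) in Cold. Of the 24 tested sterol genes, 3 were called higher and 0 lower against Warm in bFKB1, and 2 higher and 4 lower in Cold. Ccr2 had 192, 295 and 205 CPM in Warm M2 libraries and was lower in both treatments, with -1.28 ± 0.33 (SE, adjusted p = 0.0285) in bFKB1 and -2.77 ± 0.35 (SE, adjusted p = 4.47e-04) in Cold. Of the 11 glucocorticoid response genes 0 were called against Warm in bFKB1, with a median of -0.29. In Cold, 4 were called lower and 0 higher, with a median of -0.52.

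Another set was higher than in Warm under both treatments and highest in Cold. Slc40a1 had 49.8, 38.4 and 56.3 CPM in the Warm M2 libraries, and its log2 difference from Warm was 1.64 ± 0.21 (SE, adjusted p = 6.11e-04) in bFKB1 and 2.52 ± 0.22 (SE, adjusted p = 4.33e-05) in Cold. Pdk4 had 25.4, 19.5 and 14.5 CPM in Warm M2 libraries, with 1.04 ± 0.17 (SE, adjusted p = 0.00325) in bFKB1 and 1.94 ± 0.18 (SE, adjusted p = 4.55e-05) in Cold. Fcna gave 0.84 ± 0.19 (SE, adjusted p = 0.0163) in bFKB1 and 1.73 ± 0.20 (SE, adjusted p = 2.11e-04) in Cold, and Mmp9 0.95 ± 0.23 (SE, adjusted p = 0.0198) in bFKB1 and 1.99 ± 0.23 (SE, adjusted p = 2.38e-04) in Cold. Vsig4 gave 0.27 ± 0.17 (SE, adjusted p = 0.36) in bFKB1 and 1.15 ± 0.17 (SE, adjusted p = 8.62e-04) in Cold. Of the 23 resident macrophage genes, 3 were called higher and 2 lower against Warm in bFKB1, with a median of 0.01. In Cold, 6 were called higher and 3 lower, with a median of 0.23. Of the 11 tested adipocyte genes, 1 was called higher and 4 lower against Warm in bFKB1, and 4 higher and 1 lower in Cold. Adipoq had 4.5, 2.85 and 3.11 CPM in Warm M2 libraries, with -0.38 ± 0.28 (SE, adjusted p = 0.436) in bFKB1 and 1.10 ± 0.27 (SE, adjusted p = 0.0161) in Cold, and Car3 gave -1.13 ± 0.27 (SE, adjusted p = 0.0208) in bFKB1 and 0.87 ± 0.26 (SE, adjusted p = 0.0428) in Cold. The unfolded protein response, with 1 gene higher and 1 lower between bFKB1 and Cold, had 14 of 20 genes called lower and 0 higher against Warm in bFKB1, and 15 lower and 1 higher in Cold.

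**Figure D5:**
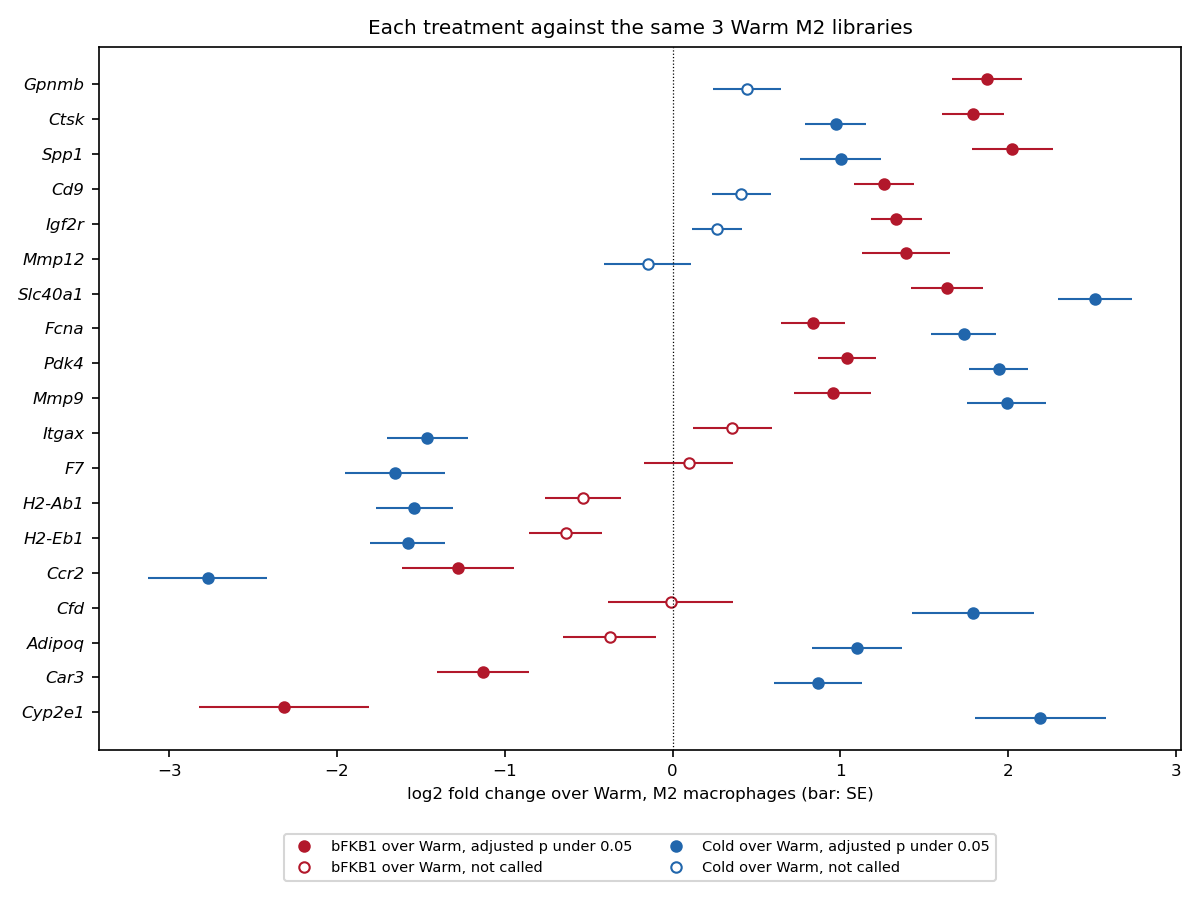
Points give the log2 fold change over the same 3 Warm M2 libraries (horizontal axis) of named genes (rows) in bFKB1 M2 (red) and Cold M2 (blue), with bars for the SE; filled points are called and open points are not. Gpnmb, Igf2r and Mmp12 are called higher over Warm in bFKB1 and not in Cold, while H2-Ab1 and Itgax are called lower in Cold and not in bFKB1.

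The lists of other cell types gave few further calls. Endothelial, dendritic cell, progenitor, granulocyte and mast cell, mesothelial and erythroid lists had 0 called members for bFKB1 against Cold, out of 12, 13, 15, 10, 5 and 1 tested. An unadjusted p under 0.05 was reached by 2 dendritic cell genes and 2 granulocyte and mast cell genes and by 0 of the others, and DESeq2 called 1 dendritic cell gene lower and 1 granulocyte and mast cell gene higher. All 15 progenitor genes had a negative log2 difference, with a median of -0.36. Granulocyte and mast cell genes summed to 12.9 to 28.3 CPM in bFKB1 M2 and 16.7 to 27.4 CPM in Cold M2 libraries. Cspg4, the pericyte antigen NG2, was the 1 called of 8 mural genes, at 1.46 (adjusted p = 0.0364), and Cd22 the 1 of 7 B cell genes, at 0.56 (adjusted p = 0.0228); each call was lost in at least 5 of the 6 fits that left out a library. None of 9 epididymal genes passed the filter.

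In M1 macrophages the same contrast called 26.3% of the genes tested, 11.1% higher and 15.2% lower in bFKB1. Of the 24 tested sterol genes, 12 were called higher in bFKB1 M1 and 0 lower, with a median of 0.35. Progenitor markers there summed to 3772 to 11004 CPM in bFKB1 M1 and 17501 to 49324 CPM in Cold M1 libraries, a separation that M2 did not have, and its part in the M1 contrast was not tested. The difference of the contrasts, M2 minus M1, was called for 47 genes (0.359%), 23 higher and 24 lower. Itgax averaged 929 ± 96.2 CPM in bFKB1 M1 and 894 ± 121 CPM in Cold M1 libraries (SD, n = 3 each), its log2 difference in M1 was 0.07 ± 0.23 (SE, adjusted p = 0.854), and the difference from M2 was 1.74 ± 0.33 (SE, adjusted p = 0.048). Igf2r averaged 602 ± 89.3 CPM in bFKB1 M1 and 693 ± 58.7 CPM in Cold M1 libraries, and the difference between M2 and M1 was 1.27 ± 0.21 (SE, adjusted p = 0.0343). Gpnmb and Mmp12 were also higher in M1 than in M2. They averaged 3899 and 2174 CPM in bFKB1 M1 and 3693 and 1949 CPM in Cold M1. Emr1 went the other way, with 2283 and 2537 CPM in bFKB1 M1 and M2. Fcna, called lower in M2, averaged 23.7 CPM in bFKB1 M1 and 27.4 CPM in Cold M1. Scd1, also called lower in M2, averaged 32.8 CPM in Cold M1 and 18.9 CPM in Cold M2. It was called lower in bFKB1 M1 too, at -2.38 (adjusted p = 0.00183). Of the 11 tested adipocyte genes, 6 were called lower and 0 higher in bFKB1 M1, with a median of -1.15. Cyp2e1 (-2.92), Car3 (-1.63), Hspa1b (-1.42) and Ddit3 (-0.65) were called lower there as well. Prkcq and Ccl4, called lower in M2, were not called in M1, at -0.09 and -0.12. The part of M1-type cells in the M2 contrast was not tested. The count of 47 ranged from 0 to 325 when single M1 or M2 libraries were left out, and was 0 without Cold M1 library 2. M1 and M2 libraries with the same title number may come from the same fat samples, which the labels do not state, and the fit treats them as independent. With M1 and M2 libraries paired by that number within each treatment, an alternative added after seeing the data, 105 genes were called, 32 of them among the 47.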

How the data were processed

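The authors deposited raw counts per gene in 2 tables, 1 with the Warm and Cold libraries and 1 with the bFKB1 libraries. GSNAP, CASAVA 1.8 and GRCm38 are listed for both, per the submitters' processing notes, and SAMtools for Warm and Cold alone; how reads were counted, on which annotation and with what strand setting, is not given in the sources used here. Per the labels' protocols the Warm and Cold libraries were poly-A selected with a kit that does not mark strand. Columns were matched to samples by the names in the sample descriptions. Symbols turned into dates in 27 rows, 0.148% to 0.192% of a library, and these were left out. Of the symbols, 20105 occur in GENCODE M21 on GRCm38, 841 matched through a synonym and 117 did not match.

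Counts of the 18 macrophage libraries were fitted together in R 4.3.3 with edgeR 4.0.16: filterByExpr, TMM scaling, 1 mean per group, quasi-likelihood F-test, Benjamini-Hochberg adjustment over 13086 genes and a threshold of 0.05. The SE is the absolute log2 fold change over the root of F. The fit was tested on simulated data of this design, in which all groups had the same mean apart from the changes set in bFKB1 M2. Of 50 genes each changed by 1, 2, -1 and -2 on the log2 scale, 88%, 100%, 90% and 96% were recovered. Among the unchanged genes of the 12926 in this test, 16 were called. Differences between M1 and M2 were not simulated. Replicate pairs in M2 groups differed by more than sampling noise. The alternatives, DESeq2 1.42.0 among them, are in the closing section.

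Genes were named by rule: called, changed by at least 1 on the log2 scale, at least 5 CPM in 1 group, no overlap of libraries and no predicted gene, the 10 highest and 10 lowest; from each of 46 lists, as many as 4 called members in order of p; 8 genes in any case; and 5 genes each way for the difference M2 minus M1. A few genes that meet the rule are not reported here. The comparison, its members and the lists were chosen with earlier results of these data known.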

Additional observations from a re-analysis of the deposited data

Results flagged for a closer look

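For 12 named genes the difference between bFKB1 and Cold in M2 macrophages differed from the same difference in M1 macrophages, by an interaction term in edgeR's fit of 18 libraries with Benjamini-Hochberg adjustment over all genes. That fit treats M1 and M2 libraries as independent, although those with the same title number may come from the same fat samples; with them paired by that number 11 of the 12 were called, and Il7r had an adjusted p of 0.0586. The values below are log2 differences, bFKB1 over Cold in M2 minus the same in M1. Positive values were found for Nqo1 (1.81), Itgax (1.74), Fat3 (1.73), Met (1.73), Grasp (1.62), Igf2r (1.27), Il7r (1.11) and Sgk1 (1.09). Itgax, Fat3, Igf2r and Il7r were called higher in bFKB1 M2, and in M1 they were at 0.07, -0.11, -0.20 and 0.02 and were not called. Nqo1, Met and Grasp were called lower in bFKB1 M1, at -1.45, -1.10 and -1.50.

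Negative values were found for F13a1 (-1.72), Oasl1 (-1.26), Slc20a1 (-1.14) and Fam43a (-1.03). Most of these differences stood near the threshold of 0.05. The adjusted p was 0.0498 for Nqo1, Il7r, Sgk1, F13a1, Slc20a1 and Fam43a and 0.048 for Itgax. It was 0.0434 for Fat3, 0.0343 for Igf2r, 0.033 for Grasp and 0.0252 for Met. Oasl1, an interferon-induced gene, had an adjusted p of 0.0104 for the difference and was higher in bFKB1 M1 at 0.69. Progenitor markers moved with the M1 contrast, at 3772 to 11004 CPM in bFKB1 M1 and 17501 to 49324 CPM in Cold M1 libraries, and their part in these differences was not tested.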

How the results depend on the processing

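The 576 genes called for bFKB1 against Cold in M2 became 358 with library totals, 368 without a filter, 906 in a fit of the 9 M2 libraries, and 27 to 787 when a library was left out. With all libraries thinned to the smallest, an alternative chosen after seeing the data, 391 were called, 359 of them among the 576. DESeq2 called 814 and shared 551. The cause of these changes was not tested. Against Warm, the bFKB1 count of 1067 became 2023 with the 9 M2 libraries and 384 to 567 with a library left out, and the Cold count of 1670 became 2596 and 652 to 1194. The 47 genes of the difference M2 minus M1 became 24 without a filter, 90 with a minimum of 5 CPM, 484 with DESeq2 and 0 to 325 with a library left out; at the 0, 2529 genes had an unadjusted p under 0.05. Cd68, which was not called, turned to -0.0235 with library totals and ranged from -0.0007 to 0.0582 with a library left out, and Grasp in M2 from -0.0186 to 0.2367.

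Replicate numbers did not pair the bFKB1 M2 with the Cold M2 libraries. Title numbers and sample characteristics agree for 0 of the bFKB1 M2 libraries, and deviations from the group means of bFKB1 and Cold libraries with the same title number correlated at -0.085, -0.039 and -0.113. In the 9 M2 libraries, a replicate block by title number called 320 genes for bFKB1 against Cold, and a replicate block by the other numbers called 727 for bFKB1 against Cold and 1793 for bFKB1 against Warm. A replicate block by title number within each population, in the 18 libraries, called 111 genes for bFKB1 against Cold and 7 for the difference M2 minus M1. A replicate block that pairs M1 with M2 libraries by title number within each treatment, chosen after seeing the data, called 105 genes for that difference; deviations of same-numbered M1 and M2 libraries correlated at 0.071 to 0.34 in bFKB1, -0.307 to -0.029 in Cold and 0.144 to 0.246 in Warm.

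The smallest Cold library held 14.4 M counts. With all libraries thinned to that depth, 10 of the 72 called named genes lost the call. These included the weakly expressed F10, Dgat2 and Cspg4 and also the highly expressed Emr1. Weakly expressed genes were not tested as a group.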

Other observations

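Some groups gave nothing or little for bFKB1 against Cold. Of 11 complement genes none was called, with a median log2 difference of -0.15, and of 15 tested circadian genes none was called, with a median of -0.11. Of 12 costimulation genes 1 was called higher, 4632428N05Rik, at 0.33 (adjusted p = 0.0298). In the ATF4 amino acid response 0 of 17 tested genes were called. In edgeR's test 0 complement, 4 circadian and 2 ATF4 genes had an unadjusted p under 0.05, and DESeq2 called 0, 1 and 1 of them, both lower.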
